A study of Mus musculus with 4 samples.

Results

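The genes described here are 10 components of nitric oxide synthesis and of cGMP signalling: the 3 nitric oxide synthases Nos1, Nos2 and Nos3, the dimethylarginine hydrolases Ddah1 and Ddah2, the soluble guanylyl cyclase subunits Gucy1a1 and Gucy1b1, the cGMP-dependent kinases Prkg1 and Prkg2, and the cGMP phosphodiesterase Pde5a. They were chosen by symbol, because Nos1 and Ddah2 had been seen to rise in mutant epithelium, and all 10 were found among the 32285 features of each of the 4 libraries. Their values in epithelial cells are therefore given as a description and were not tested. Tests were made in fibroblasts, endothelial cells and mural cells, which the choice did not use.

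Nitric oxide synthases make nitric oxide from arginine, and the isoforms are called neuronal (Nos1), inducible (Nos2) and endothelial (Nos3). The DDAH enzymes degrade methylarginines, which inhibit these synthases. Nitric oxide binds the haem of soluble guanylyl cyclase, an obligate pair of an alpha and a beta subunit, and the cGMP made there acts through kinases and channels until phosphodiesterases hydrolyse it. In vessels the pathway is best known for the relaxation of smooth muscle, where nitric oxide from the endothelium reaches the neighbouring muscle cells.

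Droplet-based 3′ single-cell RNA-seq was performed on CD45- thymic stromal cells of untreated C57BL/6 mice aged 6 months. There were 2 wild-type libraries (labelled mock, here WT 1 and WT 2) and 2 libraries homozygous for Foxn1 LacZ (labelled mutant, here Z/Z 1 and Z/Z 2). The allele affects Foxn1, the transcription factor that maintains thymic epithelial cells (TECs), and all cells of a mutant animal carry it. The protocol pooled several thymi per digestion and gave the sex as female where the sample labels gave male, so animals cannot be followed and p-values measure the spread between 2 libraries per group, which may be technical.

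After filtering, 9846 of 13981 called cells were kept. The libraries held between 8468086 and 50705512 UMIs (unique molecular identifiers, 1 per captured transcript) in called cells, and WT 2 was the smallest, with 103 TECs, 192 fibroblasts, 25 endothelial cells and 11 mural cells. The other libraries had 557 to 1954 TECs, 596 to 1158 fibroblasts, 109 to 696 endothelial cells and 71 to 464 mural cells. WT 1 and WT 2 had 202 called barcodes in common and Z/Z 1 and Z/Z 2 had 249, against at most 6 across genotypes, and 32.5% of the kept cells of WT 2 carried a shared barcode. Levels are given as CPM, the UMIs of a gene scaled to a common total per sum. Foxn1 in TECs was 90.3 and 127 CPM in WT and 51.0 and 68.7 CPM in Z/Z, with no overlap, at a log2 fold change of -0.71 (SE 0.24, edgeR adjusted p = 0.0859). Lack of overlap between 2 and 2 libraries was common: it held for 67.8% of genes in TECs, 50.9% in fibroblasts, 53.1% in endothelial cells and 42.4% in mural cells.

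Cells were clustered without the 10 genes. Of the epithelial clusters, 1 held most Nos1 and is called the Epcam-low cluster after its defining feature. It was placed with the TECs from Pdpn, Vim and MHC class II genes, in the absence of Pdgfra, and the data bear out the epithelial part of that label poorly. In Z/Z 1 and Z/Z 2, Epcam was detected in 8.55% and 15.8% of its cells, Krt8 in 17.5% and 22.6%, and Foxn1 in 0.909% and 1.32%. In the fibroblasts of the same libraries, Epcam was detected in 6.13% and 7.15% of cells and Krt8 in 13.7% and 19.8%. Fibroblast groups were deeper (medians of 9772 to 15489 UMIs per cell against 5905.5). By CPM the cluster held more than fibroblasts: Epcam 22.45 and 37.66 against 7.164 and 8.814, and Krt8 38.14 and 62.32 against 17.02 and 26.71. Foxn1 was 3.384 and 3.587 against 0.5057 and 0.4068 CPM (11 and 8 UMIs against 6 and 3). TECs without the cluster had 1247 and 1322 CPM of Epcam. Droplets without cells held 366.9 and 343.4 CPM of Epcam, and their part was not tested. H2-Aa was detected in 62.5% and 60.3% of the cluster against 10.2% and 12.4% of fibroblasts, and Pdgfra in 0.909% and 0.526% against 90.3% and 91.5%. The cluster made up 2.15% of TECs in WT 1 (12 cells; 95% exact Clopper-Pearson interval 1.12% to 3.73%), 28.1% in Z/Z 1 (interval 26.2% to 30.2%) and 24.6% in Z/Z 2 (interval 22.5% to 26.9%). In WT 2 it was 0 of 103 cells, which allows a share of up to 2.91%. Intervals and limits of this kind cover counting error only. Fewer cells of a type and less RNA per cell cannot be told apart in sums over a lineage, and so each gene is followed below through both.

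The promoters of the 2 genes that led to the choice are shown, since these genes are set side by side below. Nos1 (ENSMUSG00000029361) lies on the plus strand at chr5:117781032-117958840 of GRCm38 and overlaps the antisense gene Gm26995. Ddah2 (ENSMUSG00000007039) lies on the plus strand at chr17:35059035-35062095. The 250 bases before the RefSeq start sites follow, from 5′ to 3′ (GRCm38.p6), with capitals for GACGC, a core sequence bound by FOXN1, and for GGGCGG, the GC box, each searched on both strands (GCGTC and CCGCCC).

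Nos1 promoter, chr5:117866589-117866838, plus strand: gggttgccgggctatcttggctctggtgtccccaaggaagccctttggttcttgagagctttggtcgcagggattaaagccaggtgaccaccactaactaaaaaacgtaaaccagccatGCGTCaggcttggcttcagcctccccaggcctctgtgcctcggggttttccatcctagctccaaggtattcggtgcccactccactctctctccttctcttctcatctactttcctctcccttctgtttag

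Ddah2 promoter, chr17:35058785-35059034, plus strand: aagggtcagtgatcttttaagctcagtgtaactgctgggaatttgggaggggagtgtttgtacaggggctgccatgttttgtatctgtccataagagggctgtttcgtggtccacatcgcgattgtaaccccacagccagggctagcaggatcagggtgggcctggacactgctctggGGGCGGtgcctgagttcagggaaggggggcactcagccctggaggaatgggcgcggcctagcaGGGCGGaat

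The Nos1 window held 1 GACGC match and 0 GC boxes, and the Ddah2 window held 0 GACGC matches and 2 GC boxes. Among all 32851 windows of this length, 22.6% held GACGC and 32.7% held a GC box. The Nos1 window belongs to a RefSeq start inside the annotated gene, downstream of its outermost start. RefSeq promoter entries matched 7 of the 10 genes.

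**Figure D1:**
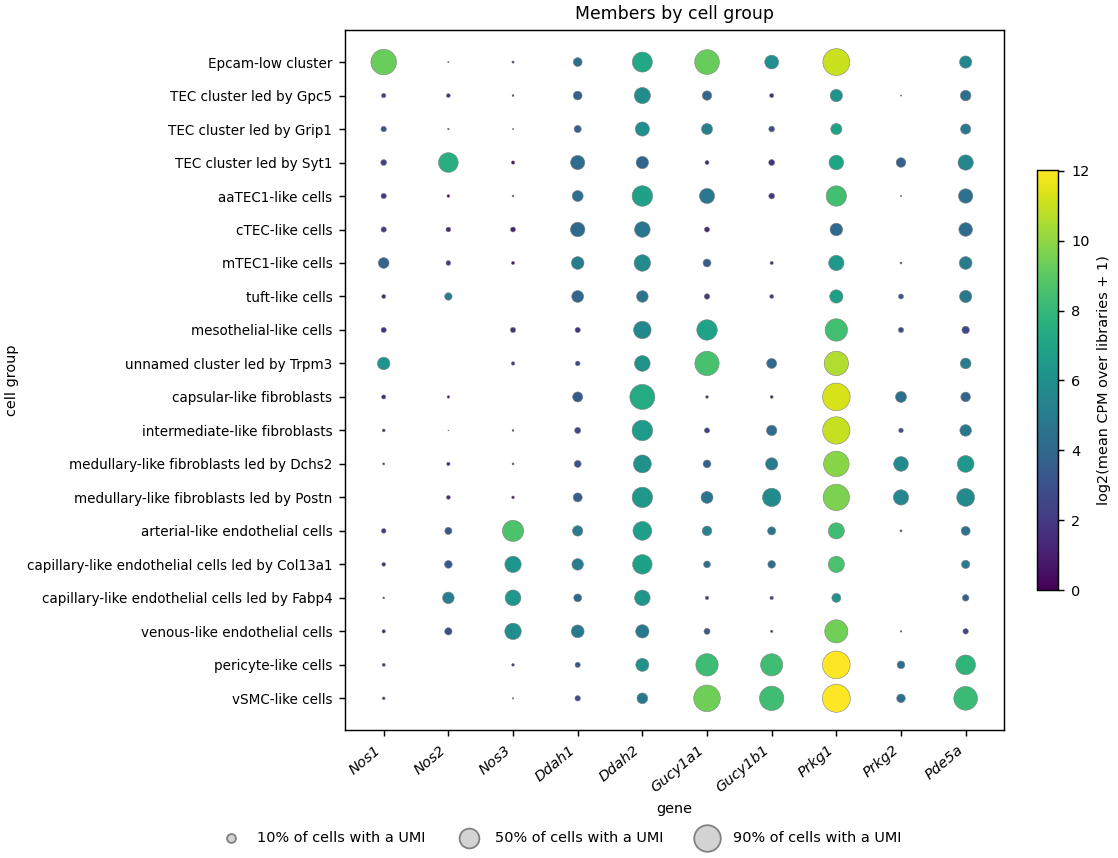
Level of each of the 10 genes (columns) in each group of cells (rows). Dot colour gives log2(mean CPM over libraries + 1) and dot area the percent of cells with a UMI. Nos1 stands out in the Epcam-low cluster (621 CPM on average), Nos2 in the TEC cluster led by Syt1, Nos3 in endothelial groups, and Gucy1b1, Prkg1 and Pde5a in pericyte-like and vSMC-like cells. Gucy1a1 is highest in vSMC-like cells and next in the Epcam-low cluster (602 CPM) and the Trpm3-led cluster (369.6 CPM), ahead of pericyte-like cells (316 CPM).

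Nos1 was concentrated in the Epcam-low cluster. There it reached 591 CPM in Z/Z 1 and 652 CPM in Z/Z 2, where 86.4% and 80.8% of cells had a Nos1 UMI, and 243 CPM in the 12 cells of WT 1. With every cell thinned to 2000 UMIs these shares were 63.0% and 61.0%. In vSMC-like cells, which served as a measure of free RNA, the share was 0.656% to 1.61% in the 3 libraries with at least 20 such cells, at a similar median depth (6380.5 UMIs per cell against 5905.5). Droplets without cells held Nos1 at 6.62 and 0 CPM in WT and at 33.2 and 43.8 CPM in Z/Z, far below the cluster.

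The next group by Nos1 level was an unnamed cluster led by Trpm3, which also carried Schwann cell markers and was seen in Z/Z alone (110 and 33 cells, against none in either WT library). Its best match was the marker list that placed the Epcam-low cluster, with a score of 0.569 against 0.481 (mean marker level relative to the highest cluster). It was left unnamed because of the Schwann cell markers, so no TEC sum or share of TECs holds its cells. The Nos1 level of this Trpm3-led cluster was 53.1 and 91.7 CPM. mTEC1-like cells followed with 8.64, 9.27 and 22.7 CPM in WT 1, Z/Z 1 and Z/Z 2. The ranges of these 3 groups did not overlap, whereas the TEC clusters further down the order overlapped their neighbours.

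Summed over all TECs, Nos1 was 7.01 and 6.93 CPM in WT 1 and WT 2 and 98.1 and 86.5 CPM in Z/Z 1 and Z/Z 2, at a log2 difference of 3.87 (SE 0.19). The libraries of the 2 genotypes lay far apart. Of the 3550 Nos1 UMIs in Z/Z TECs, 3374 came from the Epcam-low cluster, which held 26.6% of the cells. With that cluster set apart, Nos1 was 4.69 and 6.93 CPM in WT and 4.05 and 6.77 CPM in Z/Z, and the log2 difference was 0.07 (SE 0.44). The 2 groups then overlapped, so that nearly the whole Nos1 difference in the TEC sums sat in this 1 cluster, whose epithelial markers were low.

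**Figure D2:**
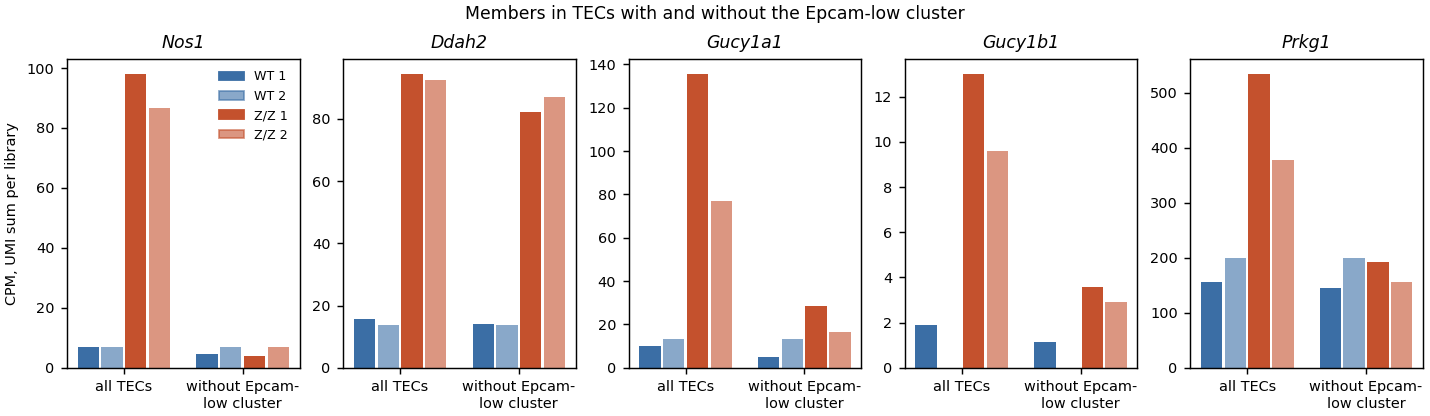
CPM of 5 genes in the UMI sum of each library, for all TECs and for TECs without the Epcam-low cluster. Each bar is 1 library, the vertical axes start at 0 and differ between panels, and Gucy1b1 is 0 in WT 2. In these sums the Nos1 and Prkg1 differences disappear when the cluster is set apart, while Ddah2 stays at 82.3 and 86.9 CPM in Z/Z against 14.2 and 13.9 in WT. The mix of the other TEC clusters also differs between genotypes.

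Nos2 (chr11:78920787-78960254), the inducible synthase, was high in WT TECs and low in Z/Z TECs. Its level was 169.8 and 168 CPM in WT against 5.92 and 16.4 CPM in Z/Z, at a log2 difference of -3.79 (SE 0.48). The TEC cluster led by Syt1, in which 72.8% of cells had an Aire UMI and 68.7% a Fezf2 UMI, supplied 99.4% of the Nos2 UMIs in WT TECs and 85.8% in Z/Z TECs. That cluster was 50.8% of WT TECs and 4.40% of Z/Z TECs.

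Within the Syt1-led cluster the Nos2 level was 278 and 269.6 CPM in WT and 68.0 and 116 CPM in Z/Z, also without overlap. The share of its cells with a Nos2 UMI was 55.2% and 57.1% in WT against 39.4% and 46.6% for Z/Z. Both the share of these cells among TECs and their own level were lower in Z/Z, and neither was tested.

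The next Nos2 level was in capillary-like endothelial cells led by Fabp4, at 26.3, 42.2 and 31.2 CPM in the 3 libraries with at least 20 such cells, which did not overlap the Syt1-led cluster and overlapped tuft-like cells. Over all endothelial cells Nos2 was 17.1 and 26.3 CPM in WT and 24.7 and 17.7 CPM in Z/Z, with overlapping groups (log2 fold change 0.14, SE 0.42, edgeR adjusted p = 0.900). In mural cells Nos2 had 0 UMIs in all 4 libraries, which allows a UMI in up to 0.647% of cells in Z/Z 1 and up to 27.3% in WT 2, a limit on detection and not on expression.

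Nos3 (chr5:24364810-24384474), the endothelial synthase, was found mainly in endothelial cells. Arterial-like cells had 630.3 (25 cells), 240.3 and 308 CPM in WT 1, Z/Z 1 and Z/Z 2, and 52.9% to 62.4% of them had a UMI. Capillary-like cells led by Fabp4 had 64.6, 91.3 and 92.3 CPM and venous-like cells 43.7, 73.7 and 51.2 CPM in the same libraries. The arterial range lay apart from the others, while the 2 capillary-like clusters overlapped each other. The gene overlaps Gm15587 and Atg9b on the opposite strand.

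Across all endothelial cells, Nos3 was 180.4 and 84.2 CPM in WT and 114 and 119 CPM in Z/Z. The 2 WT libraries lay on either side of the Z/Z libraries, and no change was detected (log2 fold change -0.36, SE 0.27, edgeR adjusted p = 0.508). The sign rested on the WT libraries, since the log2 fold change was 0.61 without WT 1 and -0.65 without WT 2 (adjusted p = 0.305 and 0.0314). In TECs Nos3 stayed between 0.433 and 0.986 CPM in all 4 libraries.

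Ddah1 (chr3:145758675-145894277) was low and broadly spread. Its highest mean level, in capillary-like cells led by Col13a1, was 32.6 CPM, and each group overlapped the next in the order of levels. In TECs it was 16.96 and 13.9 CPM in WT and 14.5 and 20.3 CPM in Z/Z, with a log2 difference of 0.29 (SE 0.26), and the groups overlapped.

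Ddah2 behaved differently from Nos1 although both led to the choice of genes. In TECs it was 15.6 and 13.9 CPM in WT and 94.5 and 92.3 CPM in Z/Z, at a log2 difference of 2.79 (SE 0.17). With the Epcam-low cluster set apart, the difference was 2.72 (SE 0.17). That cluster supplied 22.5% of the Ddah2 UMIs of Z/Z TECs. aaTEC1-like cells (Epcam-positive cells named from Cldn3, Plet1, Krt5 and Krt8) supplied 45.6% with 16.0% of the cells. For WT TECs, aaTEC1-like cells supplied 21.1% with 6.06% of the cells. The Syt1-led cluster supplied 26.5% of the Ddah2 UMIs in WT and 2.32% in Z/Z, with 50.8% and 4.40% of the TECs. The difference of 2.72 is thus also a sum over a changed mix, and Ddah2 was not tested within TEC clusters.

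Within aaTEC1-like cells Ddah2 was 52.6 (26 cells) and 68.7 CPM (14 cells) in WT and 121 and 168 CPM in Z/Z. In the Syt1-led cluster, which had the lowest mean of all groups, it was 7.27 and 3.48 CPM in WT and 25.3 and 21.2 CPM in Z/Z. In neither did the WT and Z/Z libraries overlap. Droplets without cells also held more Ddah2 in Z/Z (71.0 and 84.8 CPM) than in WT (22.9 and 9.40 CPM), and the part of free RNA in these differences was not tested.

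Among the lineages outside the epithelium, Ddah2 was highest in fibroblasts. Capsular-like fibroblasts had the highest mean, with 174 and 129.8 CPM in WT and 158 and 179.8 CPM in Z/Z. Over all fibroblasts the level was 105 and 71.2 CPM in WT and 97.2 and 127 CPM in Z/Z, with overlapping groups (log2 fold change 0.40, SE 0.21, edgeR adjusted p = 0.343). In endothelial cells it was 45.9 and 15.8 CPM in WT and 84.5 and 87.7 CPM in Z/Z, which did not overlap, but the test was not passed (log2 fold change 1.14, SE 0.31, edgeR adjusted p = 0.0751). It was passed without WT 1 (0.00221) or without WT 2 (0.024), and in 4 of 16 alternative settings in all, with adjusted p-values up to 0.254. WT 2 had 3 Ddah2 UMIs in its 25 endothelial cells. In mural cells Ddah2 was 24.9 and 26.0 CPM in WT and 31.1 and 43.1 CPM in Z/Z after TMM scaling (log2 fold change 0.55, SE 0.44, edgeR adjusted p = 0.766).

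The cyclase subunits Gucy1a1 (chr3:82092427-82145789, minus strand) and Gucy1b1 (chr3:82032006-82074689, minus strand) lie close together, and mural cells had high levels of both. In vSMC-like cells of WT 1, Z/Z 1 and Z/Z 2, Gucy1a1 was 686, 589.6 and 696 CPM and Gucy1b1 was 300.4, 329 and 327 CPM. Pericyte-like cells had 288 and 343 CPM of Gucy1a1 and 304 and 331 CPM of Gucy1b1 in the Z/Z libraries, which alone had at least 20 such cells.

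The Epcam-low cluster had the alpha subunit at the mural level and much less of the beta subunit. Gucy1a1 was 698 and 506 CPM in Z/Z 1 and Z/Z 2, overlapping vSMC-like cells, whereas Gucy1b1 was 62.4 and 56.9 CPM, below both mural groups. Both subunits were detected together in 21.6% and 20.0% of cells of the cluster, against 80.6%, 66.2% and 66.8% of vSMC-like cells in WT 1, Z/Z 1 and Z/Z 2. Nos1 and Gucy1a1 were detected together in 70.4% and 63.2% of its cells. The Trpm3-led cluster also had Gucy1a1 at 303 and 436 CPM.

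In TEC sums, Gucy1a1 was 10.2 and 13.4 CPM in WT and 136 and 76.9 CPM in Z/Z, a log2 difference of 3.37 (SE 0.36) that was 1.54 (SE 0.54) with the Epcam-low cluster set apart. Gucy1b1 was 1.88 and 0 CPM in WT and 13.0 and 9.59 CPM in Z/Z, a log2 difference of 3.23 (SE 0.75) that was 2.11 (SE 0.81) without the cluster. The cluster supplied 82.0% of the Gucy1a1 and 75.5% of the Gucy1b1 UMIs of Z/Z TECs. Droplets without cells held Gucy1a1 at 10.7 and 6.46 CPM in WT and 64.4 and 50.9 CPM in Z/Z, and Gucy1b1 at 2.55 and 2.94 CPM in WT and 26.6 and 26.1 CPM in Z/Z, more than the Z/Z TECs without the cluster held of either gene. The estimated share of such RNA in TEC sums was 9.07% and 2.78% for WT against 16.3% and 15.4% for Z/Z, and its part in the differences left without the cluster was not tested. Smooth muscle markers were present in the Epcam-low cluster. Its 6 vSMC markers summed to 1719 CPM in Z/Z 1, none of them at 0, and to 1892 CPM in Z/Z 2, where Cnn1 was at 0. In mural cells of the same libraries they summed to 17050 and 20840 CPM. The 6 pericyte markers summed to 421 and 521 CPM in the cluster, with Kcnj8 at 0 in Z/Z 1, against 2954 and 2734 CPM in mural cells. Its 5 fibroblast markers summed to 628 and 967 CPM, against 15620 and 16510 CPM in fibroblasts. Their part in the cyclase levels was not tested.

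In mural cells themselves neither subunit passed the test. Gucy1a1 was 651 and 678 CPM in WT and 509.8 and 627 CPM in Z/Z (log2 fold change -0.21, SE 0.25, edgeR adjusted p = 0.860), and Gucy1b1 was 285 and 252 CPM in WT and 322 and 328 CPM in Z/Z (0.27, SE 0.26, adjusted p = 0.815). WT 2 had 11 mural cells.

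**Figure D3:**
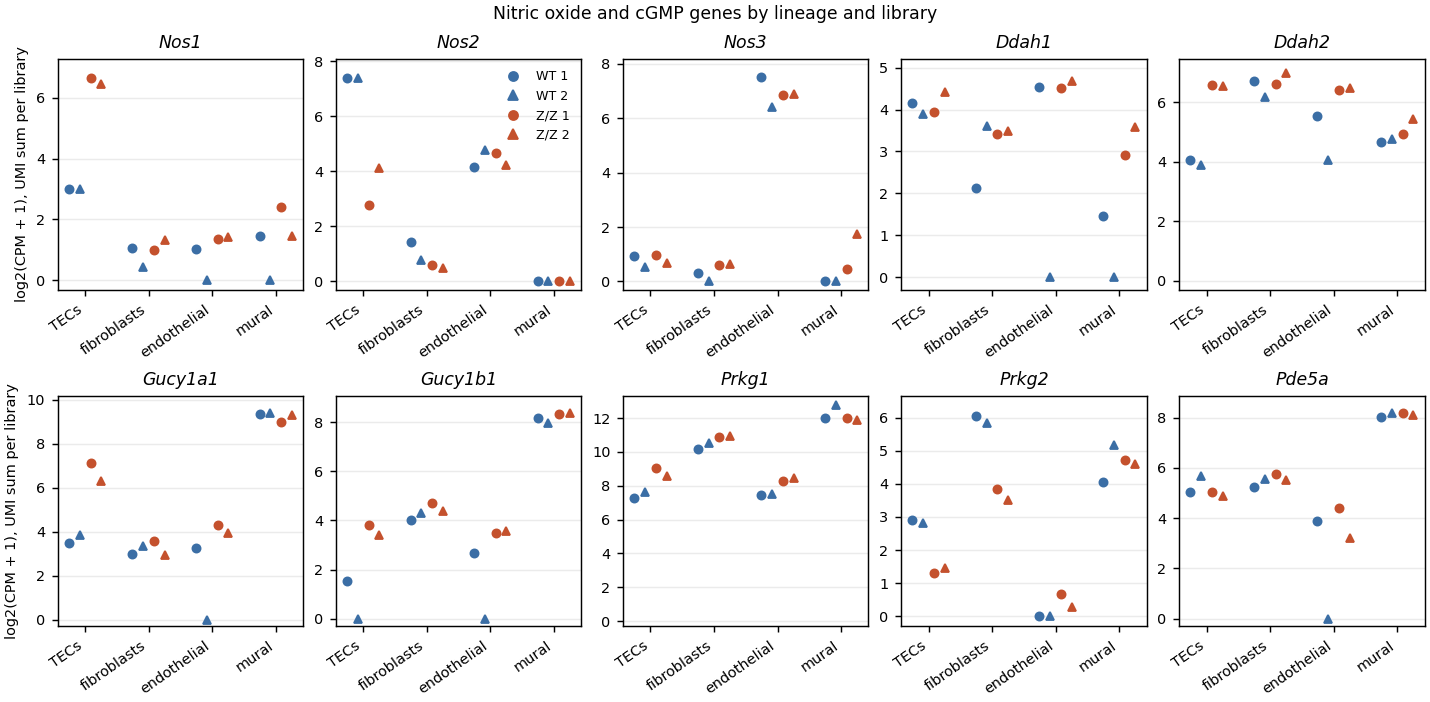
Each panel is 1 gene. Points are log2(CPM + 1) of the UMI sum of 1 library in 1 lineage, with vertical axes that differ between panels, blue for WT and red for Z/Z, circles for library 1 and triangles for library 2. In TECs Nos1, Ddah2, Gucy1a1, Gucy1b1 and Prkg1 are higher in both Z/Z libraries and Nos2 and Prkg2 lower, and in fibroblasts Prkg2 is lower in both Z/Z libraries.

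Prkg1 (chr19:30564489-31765033, minus strand), the kinase through which cGMP relaxes smooth muscle, was highest in pericyte-like and vSMC-like cells. vSMC-like cells had 4180, 4278 and 3698 CPM in WT 1, Z/Z 1 and Z/Z 2, and at least 99.2% of them had a UMI. In TECs Prkg1 was 156 and 200.2 CPM in WT and 534 and 377 CPM in Z/Z, a log2 difference of 1.503 (SE 0.24) that was 0.15 (SE 0.22) with the Epcam-low cluster set apart. That cluster, at 2325 and 1937 CPM, overlapped capsular-like and intermediate-like fibroblasts and supplied 67.4% of the Prkg1 UMIs of Z/Z TECs. The Syt1-led cluster supplied 70.95% of these UMIs in WT and 1.49% in Z/Z, with 50.8% and 4.40% of the TECs. aaTEC1-like cells supplied 18.25% and 19.54%, with 6.06% and 16.0% of the TECs. The value without the Epcam-low cluster is thus a sum over a changed mix, and Prkg1 was not tested within TEC clusters. Prkg1 spans 1200545 bases, and Cstf2t lies within it on the opposite strand.

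In endothelial cells Prkg1 was 176 and 179 CPM in WT and 314 and 347 CPM in Z/Z, without overlap, and rose (log2 fold change 0.90, SE 0.21, edgeR adjusted p = 0.0482). It was the 1 gene called of 8 tested there, where 1.09% of 11408 genes were called higher in Z/Z and 2.13% in either direction. The share of endothelial cells with a Prkg1 UMI overlapped between groups, at 22.9% and 32.0% for WT against 26.0% and 27.2% for Z/Z. The sum of the 6 pericyte markers in the same cells was 83.3 and 68.4 CPM in WT and 276 and 279 CPM in Z/Z, with Vtn at 0 in WT 1 and Kcnj8, Abcc9, Vtn and Higd1b at 0 in WT 2. Droplets without cells held Prkg1 at 288 and 235 CPM in WT and 661 and 533 CPM in Z/Z, and their estimated share of the endothelial sums was 2.98% and 3.40% for WT against 7.47% and 14.7% for Z/Z. The adjusted p was 0.0975 with this RNA subtracted, and the part of pericyte RNA was not tested. The call held in 9 of 16 alternative settings, with adjusted p-values of 0.0031 to 0.507, and was lost without Z/Z 1 (0.314) or without Z/Z 2 (0.507). None of the 8 tested genes was called lower.

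The endothelial groups also differed between genotypes. Capillary-like cells led by Col13a1, at 348 and 404 CPM of Prkg1 in Z/Z, numbered 3 and 0 in WT against 85 and 64 for Z/Z. Those led by Fabp4 had 14.4 CPM in WT 1 (6 UMIs), 113 CPM in Z/Z 1 and 70.9 CPM in Z/Z 2. Arterial-like cells had 310.2, 225 and 438 CPM and venous-like cells 279, 886 and 847 CPM in the same 3 libraries. Prkg1 was not tested within endothelial groups, for which WT 2 had at most 14 cells.

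In fibroblasts Prkg1 was 1136 and 1450 CPM in WT and 1889 and 1962 CPM in Z/Z. These 2 pairs of libraries stood apart, but the test was not passed (log2 fold change 0.64, SE 0.18, edgeR adjusted p = 0.0904). Prkg1 passed by DESeq2 (adjusted p = 0.0246) and with no filter on low counts (0.00207). Within groups, a comparison added after seeing the data, Prkg1 passed in none of those fitted. The edgeR log2 fold change was -0.07 in medullary-like cells led by Dchs2 (adjusted p = 0.922), 0.40 in intermediate-like (0.369) and 0.65 in capsular-like cells (0.0955). The Dchs2-led libraries overlapped, at 700 and 1269 CPM in WT and 966 and 900 CPM in Z/Z after TMM scaling. The shares of these groups differed between genotypes, and their part in the sum was not tested.

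Prkg2 (chr5:98929773-99037351, minus strand), the membrane-associated cGMP kinase, gave the clearest difference outside the epithelium. In fibroblasts it was 65.8 and 56.8 CPM in WT and 13.4 and 10.4 CPM in Z/Z. Every Z/Z library lay below both WT libraries, and Prkg2 fell by 2.28 on the log2 scale (SE 0.20, edgeR adjusted p = 0.000527). It was the 1 gene called of 7 tested in fibroblasts, where 1.32% of 13852 genes were called lower in Z/Z and 3.28% in either direction. It passed in all 16 alternative settings, with log2 fold changes of -2.54 to -2.12. The share of fibroblasts with a Prkg2 UMI was 35.6% and 34.9% in WT against 8.03% and 6.88% for Z/Z. The 5 fibroblast markers summed to 13330 and 12480 CPM in WT and 15620 and 16510 CPM in Z/Z, and the 7 TEC markers to 60.6 and 45.9 CPM against 74.3 and 105 CPM.

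Fibroblast groups differ in Prkg2, so the comparison was repeated within them, as an alternative chosen after seeing the data. In medullary-like fibroblasts led by Dchs2, Prkg2 was 88.9 and 73.1 CPM in WT and 23.2 and 24.0 CPM in Z/Z (log2 fold change -1.80, SE 0.21, edgeR adjusted p = 0.0014; 2.06% of 11568 genes called lower). In capsular-like fibroblasts it was 47.2 and 20.2 CPM in WT and 3.38 and 9.88 CPM in Z/Z (-2.44, SE 0.50, adjusted p = 0.0295; 1.84% of 10682 genes called lower and 2.9% higher). Prkg2 therefore fell in both groups, with no overlap between genotypes.

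In the Postn-led medullary-like fibroblasts, where WT 2 had 12 cells and no fit was made, Prkg2 was 57.5 and 87.9 CPM in WT and 41.6 and 34.3 CPM in Z/Z. In intermediate-like fibroblasts the WT libraries had 18 and 0 UMIs and the Z/Z libraries 5 and 3, and Prkg2 was not tested. None of the 5 genes tested there was called (0.764% of 10341 genes called higher and 0.609% lower, smallest edgeR adjusted p 0.232, and 1 gene, Ddah2, with an unadjusted p under 0.05). The Dchs2-led group also had Gucy1b1 at 17.99 and 18.4 CPM in WT and 40.1 and 43.8 CPM in Z/Z, where it rose (log2 fold change 1.19, SE 0.23, edgeR adjusted p = 0.019; 1.84% of genes called higher), although over all fibroblasts Gucy1b1 did not pass (0.52, SE 0.23, adjusted p = 0.272).

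**Figure D4:**
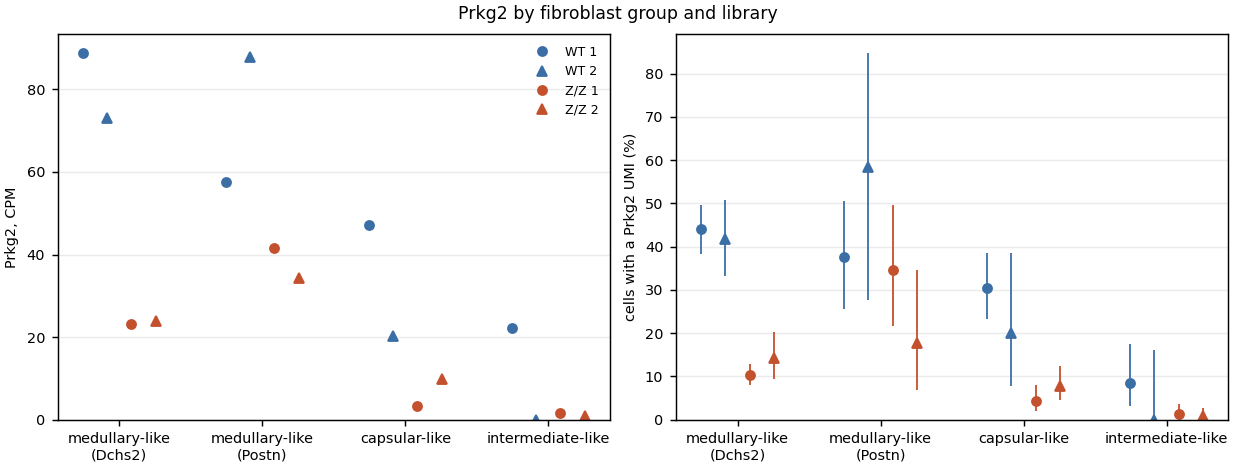
Prkg2 in 4 groups of fibroblasts, 1 point per library (blue WT, red Z/Z; circles library 1, triangles library 2). The left panel gives CPM of the UMI sum and the right panel the percent of cells with a Prkg2 UMI with its 95% exact Clopper-Pearson interval. In the Dchs2-led group 44.0% and 41.9% of WT cells had a UMI against 10.2% and 14.3% of Z/Z cells.

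The fall was not seen in mural cells, where Prkg2 was 15.5 and 34.8 CPM in WT and 25.3 and 23.2 CPM in Z/Z with overlapping groups (log2 fold change 0.31, SE 0.51, edgeR adjusted p = 0.905). The genotype effect differed between the lineages: the interaction over fibroblasts, endothelial cells and mural cells, with library as a block, had an edgeR adjusted p of 0.00237, and the mural effect exceeded the fibroblast effect by 2.78 on the log2 scale. Prkg2 was the 1 member called there, where 1.7% of 13514 genes were called. Endothelial cells had 0 Prkg2 UMIs in either WT library and 3 and 1 in the Z/Z libraries. Fitted on fibroblasts and mural cells alone, the difference was 2.70 (SE 0.49, adjusted p = 0.000443). The 3-lineage call was lost without WT 1 (0.265), without Z/Z 1 (0.138) or without Z/Z 2 (0.0801), with cells thinned to 2000 UMIs (0.515) and with empty-droplet RNA subtracted (0.0976).

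In TECs Prkg2 was 6.52 and 6.065 CPM in WT and 1.48 and 1.72 CPM in Z/Z, a log2 difference of -1.84 (SE 0.40). As with Nos2, the Syt1-led cluster supplied most of it, with 94.7% of the WT and 82.0% of the Z/Z UMIs. Within that cluster the level was 10.2 and 9.06 CPM in WT and 17.4 and 11.5 CPM in Z/Z, not lower in Z/Z. The Nos2 and Prkg2 differences in TECs thus came from the same cluster, but its own Prkg2 level did not follow that of Nos2.

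Pde5a (chr3:122728947-122859374), which hydrolyses cGMP, was highest in the mural groups, like Gucy1b1. vSMC-like cells had 269, 305 and 286 CPM in WT 1, Z/Z 1 and Z/Z 2, and pericyte-like cells had 234 and 218 CPM in Z/Z. In mural cells it was 261 and 287 CPM in WT and 286 and 272 CPM in Z/Z, with overlapping groups (log2 fold change 0.06, SE 0.26, edgeR adjusted p = 0.977). In TECs it was 32.4 and 49.8 CPM in WT and 32.1 and 28.7 CPM in Z/Z, a log2 difference of -0.27 (SE 0.26). The Epcam-low cluster, at 52.3 and 43.0 CPM, stood well below the mural groups, as it did for Gucy1b1.

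Of the 10 genes, 7 had a log2 difference of at least 1 in size in TECs, where 32.4% of all 18850 genes did, a count from the same comparison that led to the choice. In mural cells 0 of the 6 tested genes were called by edgeR (0.0774% of 9042 genes were called, 0.0553% higher and 0.0221% lower), 0 had an unadjusted p under 0.05, and DESeq2 called 0, with 2 adjusted p-values not given. Of the genes not tested for low counts, Nos1, Nos2 and Nos3 were left out in fibroblasts, Nos1 and Prkg2 in endothelial cells, and Nos1, Nos2, Nos3 and Ddah1 in mural cells.

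Over 54 sums of 18 groups of cells by library, each of at least 20 cells, Gucy1a1 and Gucy1b1 had a Pearson correlation of 0.78 in log2(CPM + 1). It was 0.74 for Gucy1b1 and Pde5a, 0.61 for Gucy1a1 and Pde5a, and 0.06 for Nos1 and Ddah2. Sums of 1 library share its depth, so these values describe these data only. Among 16512 genes, the pattern of Nos1 was most like those of genes that included 2900079G21Rik (0.78), Efcab6, Orm3 and Erfe (0.71). That of Ddah2 was most like Glul (0.80), Pttg1ip, Ahnak, Palm and Add3 (0.73). That of Nos3 was most like Tal1 (0.96), Myct1, Podxl, Rasgrp3 and She (0.95), and that of Gucy1a1 was most like Notch3 (0.88), Pakap, Itga7, Myl9 and Crem (0.78).

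A further 68 genes of the pathway were listed in 7 groups by role, and 60 could be tested in TECs. There 7 were higher in Z/Z and 11 lower, where 9.89% and 11.8% of all genes were (21.7% in either direction), and their median log2 fold change was -0.04 against 0.00 over all genes. The 4 called lower among 10 tested guanylyl cyclases and their ligands included Nppa and Nppb, which encode natriuretic peptides. Nppa was 19.4 and 18.8 CPM in WT and 0.0524 and 0.462 CPM in Z/Z after TMM scaling, the scale used for all CPM of pathway genes, and fell by 6.20 on the log2 scale (SE 0.73, edgeR adjusted p = 0.00904). Nppb fell by 4.73, and Gucy1b2 by 2.11. Gchfr, the feedback regulator of the synthesis of the synthase cofactor tetrahydrobiopterin, fell by 3.07, and the cyclic nucleotide-gated channel subunits Cngb3 and Cnga2 by 2.32 and 2.16. Several of these genes were detected mainly in the Syt1-led cluster, the one that was 50.8% of WT and 4.40% of Z/Z TECs: a UMI was found there in 4.29% of cells for Nppa, 11.5% for Cnga2, 10.2% for Gucy1b2 and 18.6% for Gucy2c, against at most 0.431%, 0.666%, 2.60% and 1.30% in any other TEC cluster. Gchfr was found in 11.5% there but also in 19.6% of cTEC-like and 13.0% of tuft-like cells. The falls were not tested within clusters. With only the smaller copy of each shared barcode left out, 1856 genes were called higher and 2223 lower in TECs. With all cells left out whose barcodes recur between libraries, 0 pathway genes and 1 of all 17691 genes tested passed in TECs. Without Z/Z 1 or without Z/Z 2, fewer pathway genes passed, as did fewer genes in all.

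Those higher in Z/Z included Pde3a, a phosphodiesterase inhibited by cGMP (log2 fold change 3.41), Npr2, the receptor for C-type natriuretic peptide (2.45), Txnrd1 (1.48), Cyb5r3 (1.39) and Nos1ap, an adaptor of Nos1 (0.90). Pde3a was 7.33 and 0.835 CPM in WT and 62.6 and 46.5 CPM in Z/Z (SE 0.62, edgeR adjusted p = 0.0205). With the Epcam-low cluster set apart it was 4.53 and 0.838 CPM in WT and 5.32 and 5.41 CPM in Z/Z (adjusted p = 0.425), and 6 pathway genes were higher and 8 lower, where 8.36% and 10.2% of all genes were (18.6% in either direction). Without that cluster Pde3a, Gucy1b2, Gucy2c and Txn1 were no longer called, while Nppa and Npr2 still were.

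In fibroblasts 48 pathway genes were tested, 2 were called higher and 2 lower, where 1.96% and 1.32% of all genes were. Pde11a, a phosphodiesterase of both cyclic nucleotides, rose by 2.24 (edgeR adjusted p = 0.0144) and Cygb, a globin that consumes nitric oxide, by 0.94 (0.0167). Ass1, which regenerates arginine for nitric oxide synthesis, fell by 2.05 (0.00208), and Kcnma1, a potassium channel regulated by cGMP-dependent kinase, fell by 1.495 (0.00619).

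Fibroblast groups did not keep their shares: intermediate-like cells were 71 of 596 and 21 of 192 fibroblasts in WT and 285 of 1158 and 312 of 727 in Z/Z. Within groups, a comparison added after seeing the data, Ass1 fell in Dchs2-led cells (log2 fold change -1.75, SE 0.27, edgeR adjusted p = 0.00571) and in capsular-like cells (-1.95, SE 0.46, 0.0477). Cygb rose in both (0.83, SE 0.17, 0.0256 and 1.92, SE 0.29, 0.00899) and did not pass in intermediate-like cells (0.59, 0.229). Kcnma1 passed in none of the 3 groups, with log2 fold changes of -1.25 in Dchs2-led, 0.52 in intermediate-like and 1.20 in capsular-like cells (adjusted p = 0.0987, 0.828 and 0.39). Pde11a, which was tested in the latter 2 groups alone, passed in neither (1.92 and 1.16, adjusted p = 0.171 and 0.416).

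In endothelial cells 43 were tested, with 0 called lower (1.09% of all genes were higher and 1.04% lower). Prmt1, which makes methylarginines, rose by 1.25 (edgeR adjusted p = 0.0485) and Dynll1, a binding partner of Nos1, by 1.12 (0.0343). Neither passed with cells thinned or with all shared barcodes left out. At most 1 of them passed with empty-droplet RNA subtracted, with only the smaller copies of shared barcodes left out, or by DESeq2. More pathway genes were called with no filter on low counts or no doublet removal. WT 2 had 25 endothelial cells, and neither gene was tested within endothelial groups, whose shares differed between genotypes. In mural cells edgeR called 0 of 42 and DESeq2 0, with 26 adjusted p-values not given, and 4 and 3 genes had an unadjusted p under 0.05.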

How the data were processed

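The authors prepared 4 libraries of CD45- thymic cells, mapped them with Cell Ranger 7.0.1 to mm10, and the deposited matrices hold raw UMI counts for called cells and for all barcodes. The processing notes also name build GRCm38.p5, and the header of the all-barcode matrix gives Cell Ranger version 4. The deposited summaries give the percent of reads mapped to introns (24.6% in WT 1) and to the transcriptome, and intronic reads are counted. Labels and methods differ on the kit version (v2 or v3) and on sex.

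Cells with over 1000 genes and under 20% mitochondrial UMIs were kept (10245). The doublet caller's own threshold marked 13 cells (0.127%), too few for it to have worked, so the 3.9% with the highest scores per library (399) were removed. Ribosomal and haemoglobin genes (111) were left out. Cells were clustered with scanpy 1.11.5 and leidenalg 0.10.2 (3500 variable genes, 35 components, 20 neighbours, resolution 1), with all listed genes (195) held out, and named "-like" from marker lists. These names are rebuilt and may differ from the study's.

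UMIs were summed per library and lineage and compared with edgeR 4.0.16 (R 4.3.3; TMM, filterByExpr, quasi-likelihood F test, two-sided, Benjamini-Hochberg adjusted p under 0.05 over all genes tested), with DESeq2 1.42.0 as an alternative. The scripts were tested on simulated data. CPM were computed from UMI sums without TMM unless stated. The study's rank-sum tests over cells were not used. Levels are 3′ counts and were not compared between genes by length. Positions are from GENCODE on GRCm38. Alternatives covered filters, thinning to 2000 UMIs, empty-droplet RNA (barcodes with at most 100 UMIs), shared barcodes and leaving out each library. Named genes are the 10 members, pathway genes past the threshold (at most 6 per lineage and direction by size of change) and the 5 most correlated genes of Nos1, Ddah2, Nos3 and Gucy1a1, of which some are not reported here. A few genes outside this rule (Gucy2c, Txn1) are named because a count turned on them, after their values were seen. Members and lists were chosen with earlier results of these data known. Replicate numbers did not pair the libraries (correlations of same-numbered deviations -0.088 to -0.0068), so no block was used.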

Additional observations from a re-analysis of the deposited data

Results flagged for a closer look

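The effect of genotype on Prkg2 differed between fibroblasts, endothelial cells and mural cells (adjusted p of the interaction 0.00237, edgeR). Prkg2 fell by 2.28 on the log2 scale in fibroblasts and had a log2 fold change of 0.31 in mural cells, where the groups overlapped, and it had at most 3 UMIs per library in endothelial cells. The difference passed under 10 of 15 alternatives and is given with the settings that end it below.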

How the results depend on the processing

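Calls depended on the libraries and on depth, and changes below were counted against 4090 genes called in TECs, 454 in fibroblasts, 243 in endothelial cells and 7 in mural cells. The cause of these movements was not tested. Leaving out each library in turn gave 487 (without Z/Z 1) to 4155 genes in TECs, 462 to 911 in fibroblasts, 81 to 1040 in endothelial cells and 12 to 443 in mural cells. Members called went from 1 to 1 to 2 in fibroblasts (2 without WT 2 or without Z/Z 1), 0 to 3 in endothelial cells (0 without either Z/Z library, 3 without either WT library), 0 in mural cells throughout and 0 to 1 in the test between lineages. Pathway genes called ranged from 3 to 19 in TECs, 4 to 8 in fibroblasts, 0 to 7 in endothelial cells and 0 to 3 in mural cells.

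With no filter on low counts, 1354 genes were called in fibroblasts, 740 in endothelial cells and 150 in mural cells, with 2 members in fibroblasts, 2 in endothelial cells and 2 between lineages, and 8, 7 and 2 pathway genes. With all shared barcodes left out, 1 gene was called in TECs, 220 in fibroblasts and 60 in endothelial cells, with 0 members in endothelial cells and 0, 2 and 0 pathway genes. With cells thinned to 2000 UMIs, 237 genes were called in fibroblasts, 9 in endothelial cells and 0 in mural cells, with 0 members in endothelial cells, 0 between lineages and 0 pathway genes in endothelial cells. With empty-droplet RNA subtracted, 132 genes were called in endothelial cells and 0 in mural cells, with 0 members in endothelial cells, 0 between lineages and 1 pathway gene, and the mean Nos1 level of the Epcam-low cluster went from 621 to 726 CPM. DESeq2 called 22 genes in mural cells, 2 members in fibroblasts, 2 between lineages and 1 pathway gene in endothelial cells. In endothelial cells it gave no adjusted p for 29 of 43 pathway genes and 5 of 8 members. With no doublet removal, 63 genes were called in mural cells, 2 members between lineages and 6 pathway genes in endothelial cells. With under 10% mitochondrial UMIs, 0 genes were called in mural cells and 2 members between lineages, and with over 500 genes per cell 2 genes in mural cells. Leaving out only the smaller copies of shared barcodes, chosen after seeing the data, gave 0 members and 1 pathway gene in endothelial cells. With these 57 kept cells left out, 1856 genes were called higher and 2223 lower in TECs, and 263 and 177 in fibroblasts. In called cells the smaller copy had a median of 3.24% of the larger copy's UMIs between the WT libraries and 1.78% between the Z/Z libraries.

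The replicate numbers did not pair the libraries. With the replicate block, 2436 genes were called in TECs, 366 in endothelial cells and 62 in mural cells, with 10 pathway genes in TECs and 4 in endothelial cells. Prkg1 in endothelial cells then had an adjusted p of 0.0519 (edgeR) and Ddah2 of 0.031.

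Of the 16 alternatives, 16 kept the Prkg2 call in fibroblasts. Among members, signs turned only for those that were not called: Ddah1 in fibroblasts (-0.11 without WT 1 to 1.64 without WT 2), Gucy1a1 in fibroblasts (-0.17 without Z/Z 1 to 0.51 without Z/Z 2, -0.44 with empty-droplet RNA subtracted), Nos2 in endothelial cells (-0.17 without WT 1, -0.18 without Z/Z 1, 0.34 without Z/Z 2), Nos3 in endothelial cells (-0.65 without WT 2 to 0.61 without WT 1), Pde5a in endothelial cells (-0.27 without Z/Z 1 to 8.596 without WT 1, where the remaining WT library had 0 UMIs and the value is no bound, -0.0031 with empty-droplet RNA subtracted), Gucy1b1 and Pde5a in mural cells (-0.22 and -0.28 with no doublet removal) and Prkg2 in mural cells (-0.37 without WT 1 to 0.64 without WT 2). Ddah1 in fibroblasts passed without WT 2 (edgeR adjusted p = 0.0306). Kcnma1, called lower over all fibroblasts, had log2 fold changes of 0.52 and 1.20 within intermediate-like and capsular-like cells, neither called. The Epcam-low cluster set apart, the fits within fibroblast clusters and the mural and fibroblast comparison were added after seeing the data. WT 2 had 11 mural and 25 endothelial cells.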
